A study of Mus musculus with 8 samples.

Results

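Fgf21, Gdf15, Adm2, Vegfa, Stc2 and Stc1 encode hormones and growth factors that cells secrete under metabolic stress. Their expression was followed by RNA-seq in mouse neural progenitor cells, 6 genes of the 32499 in the table. They were chosen by gene symbol, with the fold changes between the groups below already in view, so those fold changes describe the factors and support nothing about them as a set. The cells came from neural tubes of C57BL/6 embryos at embryonic day 14, sorted with the dye NeuroFluor CDr3. The 4 control libraries were labelled Control, and the protocols speak of wild-type embryos. The 4 libraries labelled 53BP1 KO, numbered KO 1 to KO 4, came from embryos of Trp53bp1tm1Jc mothers, carriers of a targeted allele, and fathers with in-frame deletions that CRISPR had made in the same gene; which allele each library carries is not stated. Nor is it stated whether the replicates were separate embryos or whether the sorted cells had been cultured in differentiation medium, so p-values measure only how far these libraries vary, in part perhaps for technical reasons.

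Each library held between 11081419 and 24339621 counts, the lowest and the highest both being labelled KO. Trp53bp1, the targeted gene, had 26.8 ± 0.349 CPM (counts scaled to library size) on average in control libraries, against 27.1 ± 6.36 in those labelled KO (SD, n = 4 each). In-frame deletions need not lower a whole-gene count, and which allele each library carries is not stated, so this level does not check the labels. Xist, the RNA of the inactive X chromosome, had at least 23853 counts in each control and at most 16 in each library labelled KO, whereas Y-linked Ddx3y had 0 counts in control libraries and 579 or more in the others. X-linked Kdm6a, the gene of the demethylase UTX, fell from 39.5 ± 3.80 to 22.9 ± 3.67 CPM. Group and sex therefore cannot be told apart for any value below. The 10 radial glia markers, the defining genes of such progenitors, summed to 10641 to 12890 CPM in control libraries and to 10222 to 13487 in those labelled KO. Fabp7 made up most of that sum (7591 and 7793 CPM on average), and beneath it 4 of the 10 rose, Sox2 (0.78 on the log2 scale), Pax6 (0.50), Hes5 (0.47) and Slc1a3 (0.31), and 2 fell, Nes (-0.90) and Vim (-0.39). Markers of microglia summed to at most 6.89 CPM and those of red blood cells to at most 3.37 CPM in any library. The 10 neuron markers, mostly Map2 and Gap43, summed to 543.7 to 693.1 CPM against 510.8 to 572.4. Of them 3 fell, Snap25 (-1.16), Syt1 (-0.83) and Elavl4 (-0.52), and 2 rose, Dcx (0.91) and Tubb3 (0.68). Choroid plexus markers summed to at most 9.96 CPM, with Ttr at 0 throughout. Muscle and cartilage markers summed to 49.8 to 70.0 CPM in control libraries and to 44.9 to 49.0 in those labelled KO, and of 6 tested 3 fell and 1 rose. Of 9 astrocyte markers 7 rose, their sum going from 410.6 to 529.5 CPM in control libraries up to 1165 to 1363 in those labelled KO. Beside each of these counts of markers, 16.1% of all genes tested rose and 13.9% fell (adjusted p under 0.05 by edgeR). The part of these marker shifts in the values below was not tested. In these bulk samples, fewer cells of a type and less RNA per cell cannot be told apart.

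When nutrients, oxygen or protein folding fail, kinases phosphorylate the translation factor eIF2. Most translation then slows while that of the transcription factor ATF4 increases. ATF4 pairs with C/EBP proteins on a composite DNA element (CARE) in genes of amino acid supply and in Fgf21. Oxygen shortage acts through hypoxia-inducible factors (HIF), of which Vegfa is a classical target, and DNA damage acts through p53, of which Gdf15 is a target. The secreted products carry the signal to other cells: FGF21 and GDF15 to metabolic and feeding centres, VEGFA and the peptide ADM2 to vessels, and the stanniocalcins STC1 and STC2 mostly to nearby tissue.

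All 6 genes passed the filter on low counts, Fgf21 and Adm2 only through the libraries labelled KO. The place of Fgf21 and Adm2 among the genes tested thus depended on their level in those libraries. In the fit over 15021 genes, 5 of the 6 were above the controls past the threshold (adjusted p under 0.05 by edgeR), beside 16.1% of all genes tested that rose and 30.0% called in either direction, and for the same 5 the groups did not overlap, beside 29.9% of all genes. Nothing is read from these counts, since the choice of genes used this contrast. Their median log2 fold change was 2.23, against 0.00 over all genes tested. Summed over the 6, control libraries held 36.4 to 52.3 CPM and those labelled KO 155.8 to 180.3.

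**Figure D1:**
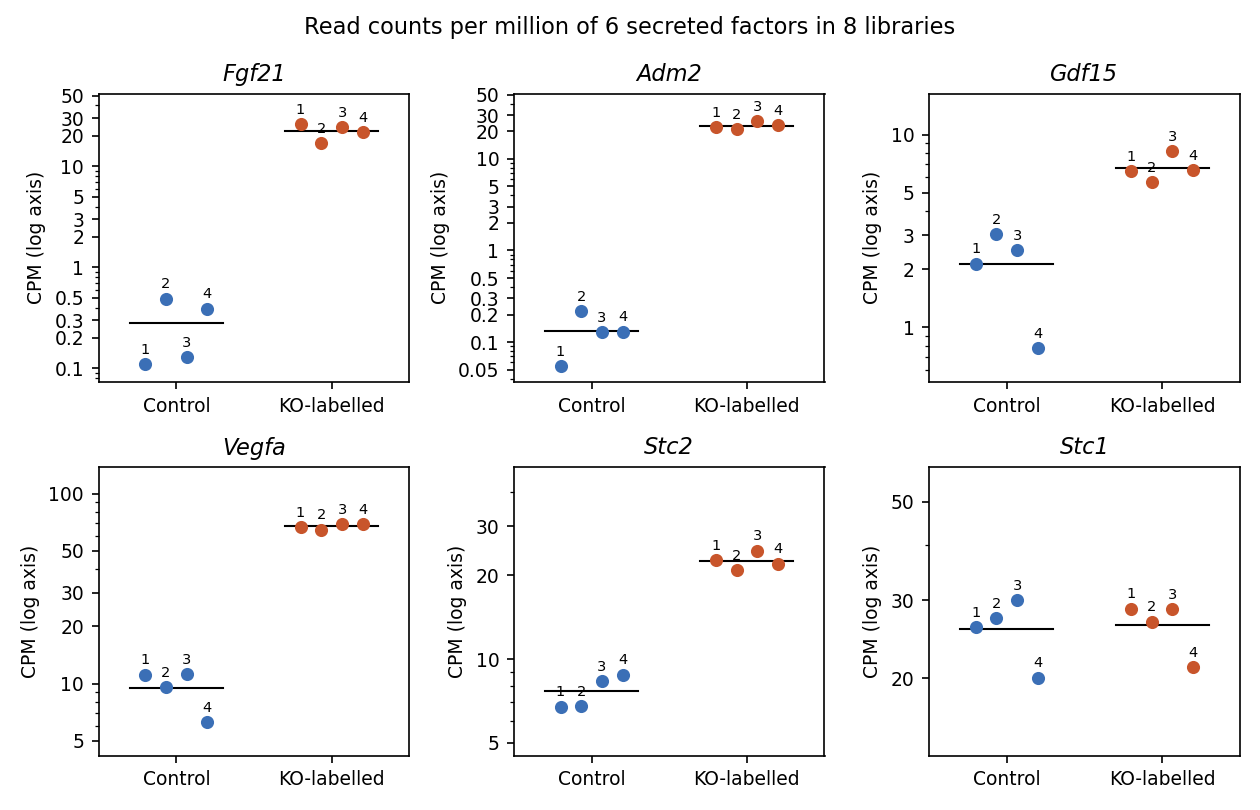
Level in CPM (log axis) of the 6 secreted factors in each of 4 control libraries and 4 labelled KO. Points are libraries with their replicate number and the lines are group means. For all but Stc1 every library labelled KO lies above every control.

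Fgf21 encodes an endocrine fibroblast growth factor. It was close to undetected in the controls, with 2, 9, 2 and 6 counts in controls 1 to 4, and had 534, 194, 431 and 518 counts in KO 1 to 4. On the CPM scale these were 0.110, 0.488, 0.129 and 0.388 in the controls and 26.3, 16.9, 24.3 and 21.7 in the libraries labelled KO. The lowest library labelled KO was 34.6-fold above the highest control. The log2 fold change was 6.28 (SE 0.28), the 9th largest rise of all genes tested, and the ratio of summed counts was 81.3 with a 95% interval of 51.9 to 135.4 from counting error alone. Controls 2 and 4 were the higher controls and KO 2 the lowest of its group.

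The sequences before the start sites of Fgf21 and Adm2, the genes with the largest fold changes of the 6, are shown because they differ in the stress elements they hold. They are the 250 bases upstream of the RefSeq start in GRCm38.p6, chr7:45615491-45615740 on the minus strand for Fgf21 and chr15:89322470-89322719 on the plus strand for Adm2. Capitals mark matches, on either strand, to the CARE letters TGATGNAA and to the E-box CACGTG, which contains the core letters ACGTG of a HIF site on each strand.
Fgf21: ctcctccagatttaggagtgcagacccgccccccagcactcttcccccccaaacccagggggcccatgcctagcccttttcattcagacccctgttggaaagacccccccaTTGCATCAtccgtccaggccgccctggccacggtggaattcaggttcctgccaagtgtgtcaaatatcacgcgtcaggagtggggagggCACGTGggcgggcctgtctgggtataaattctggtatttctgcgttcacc
Adm2: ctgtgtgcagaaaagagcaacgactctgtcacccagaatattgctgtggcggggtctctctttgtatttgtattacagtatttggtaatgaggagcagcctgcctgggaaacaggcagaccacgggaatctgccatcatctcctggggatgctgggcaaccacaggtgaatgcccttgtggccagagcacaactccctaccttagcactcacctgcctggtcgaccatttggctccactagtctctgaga
The CARE match of Fgf21 lies from -139 to -132 relative to the start and reads on the opposite strand, and the E-box lies from -50 to -45. Of all 32851 RefSeq promoter windows, 3.45% held the CARE letters, 6.02% the E-box and 16.6% the HIF core ACGTG in their upstream 250 bases. The Adm2 window held none of these letters, and neither did the windows of Stc2, of Gdf15 at its first listed start or of Vegfa at its first listed start. At their second listed starts, the Gdf15 window held the E-box from -83 to -78 and the Vegfa window the HIF core from -211 to -207. Both of these windows lie downstream of the first listed start of their gene. That of Vegfa is chr17:46025164-46025413 on the minus strand, against chr17:46032378-46032627 for the first. Windows were found for 5 of the 6 genes. A match is a description of letters and no evidence of binding, and the lack of one covers this window only.

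Adm2 encodes adrenomedullin 2, also called intermedin, a peptide of the calcitonin family that widens vessels. It had 1, 4, 2 and 2 counts in controls 1 to 4 and 448, 241, 458 and 557 counts in KO 1 to 4. These were between 0.0548 and 0.217 CPM in control libraries and 22.0, 21.0, 25.8 and 23.4 CPM in those labelled KO. The ratio of summed counts was 174.5, with an interval of 91.7 to 382.2 from counting error alone, because the controls held only 9 counts together. The log2 fold change was 7.36 (SE 0.22), the 6th largest rise of all genes tested. The libraries labelled KO were much more alike than for Fgf21, with a coefficient of variation of 9.03% against 18.2%.

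Vegfa encodes the main growth factor of blood vessels, which also acts on neural cells. It had 11.1, 9.55, 11.2 and 6.27 CPM in controls 1 to 4 and 66.4, 64.6, 68.9 and 69.0 CPM in KO 1 to 4. The group means were 9.54 ± 2.31 and 67.2 ± 2.09 CPM (SD, n = 4 each), a log2 fold change of 2.81 (SE 0.15) or 7.03-fold. The libraries labelled KO agreed closely, with a coefficient of variation of 3.11%, the smallest of the 6 genes in either group. Control 4 was the lowest control, and without it the log2 fold change of Vegfa was 2.65.

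Gdf15 encodes a distant member of the TGF-beta superfamily that suppresses appetite through the brainstem. It had 39, 56, 39 and 12 counts in controls 1 to 4, or 2.14, 3.04, 2.52 and 0.776 CPM. In KO 1 to 4 it had 131, 65, 145 and 156 counts, or 6.45, 5.66, 8.17 and 6.54 CPM. The groups did not overlap, but the lowest library labelled KO was only 1.86-fold above the highest control. The log2 fold change was 1.65 (SE 0.28), or 1.38 without control 4, where Gdf15 was at its lowest. Its group means were 2.12 ± 0.967 and 6.71 ± 1.06 CPM (SD, n = 4 each).

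The stanniocalcins are paralogous glycoproteins that block the protease PAPP-A and so hold back the release of insulin-like growth factors. Stc2 had 6.74, 6.79, 8.32 and 8.79 CPM in controls 1 to 4 and 22.6, 20.8, 24.5 and 22.1 CPM in KO 1 to 4, a log2 fold change of 1.56 (SE 0.12). Every library labelled KO was at least 2.37-fold above every control. Stc1 had 26.0, 27.4, 30.0 and 20.0 CPM in control libraries and 28.7, 26.8, 28.6 and 21.2 CPM in those labelled KO, so the groups overlapped. The fitted difference was 0.02 on the log2 scale (SE 0.14), with a 95% interval of -0.27 to 0.31 and a sign that turned under upper-quartile scaling (-0.01) and without control 4 (-0.09), KO 1 (-0.02) or KO 3 (-0.02). GENCODE lists an antisense gene across Stc1, and the strand setting of the counting is not given in the sources used here.

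**Figure D2:**
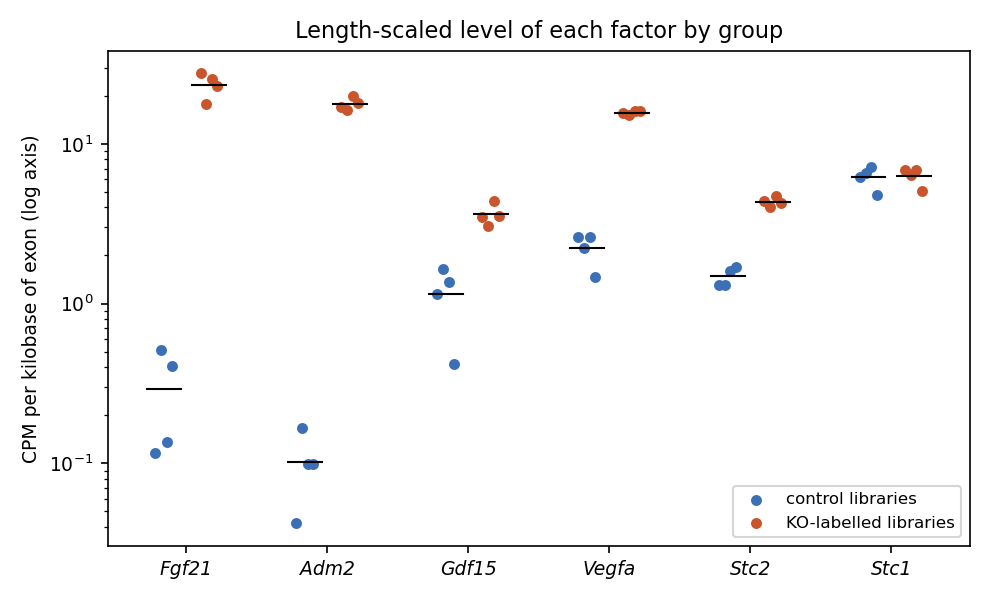
Level of each factor as CPM per kilobase of exon (log axis) in control libraries and those labelled KO, with points for libraries and lines for group means. Stc1 leads in the controls, and Fgf21, Adm2 and Vegfa lead in the libraries labelled KO.

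Scaled by exon length, the order of the genes differed between the groups. In the controls Stc1 led with 6.16 ± 1.00 CPM per kilobase, followed by Vegfa (2.23 ± 0.539), Stc2 (1.48 ± 0.204), Gdf15 (1.14 ± 0.522), Fgf21 (0.293 ± 0.199) and Adm2 (0.102 ± 0.0511; SD, n = 4 each). Only Stc1 stood clear of its neighbour in that order, since each later pair overlapped in range. In the libraries labelled KO Fgf21 had 23.4 ± 4.26 CPM per kilobase and Adm2 17.8 ± 1.60, and their ranges overlapped. Vegfa followed with 15.7 ± 0.488, just below the lowest Adm2 value, and then Stc1 with 6.27 ± 0.845, Stc2 with 4.35 ± 0.298 and Gdf15 with 3.62 ± 0.570. The ranges of Stc2 and Gdf15 overlapped and those of Stc1 and Stc2 did not. The lengths are those of all GENCODE M21 exons of a gene, which may differ from the models used for counting.

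Within the groups the 6 genes did not share 1 order of libraries. KO 2, the library with the fewest counts, was the lowest of its group for Fgf21, Adm2, Gdf15, Vegfa and Stc2, as it was for 31.1% of all genes tested and for 14 of 25 ATF4 targets. KO 4 was the lowest for Stc1. Among the controls, control 4 was the lowest for Gdf15, Vegfa and Stc1, and control 1 for Fgf21, Adm2 and Stc2. Control 4 was the lowest control for 30.7% of all genes tested, for 12 of 21 HIF targets and for 16 of 17 p53 targets. It was also the lowest for 8 of 15 other secreted or secretory pathway factors. Of 25 ATF4 targets it was the lowest control for 3 and the highest for 18. Trib3, from the list of stress regulators, had 6.98 CPM in control 4 and between 2.39 and 3.29 CPM in the other controls. Of 9 tested markers of mesenchyme and meninges 6 fell and 1 rose, beside 13.9% and 16.1% of all genes. Their sum was also highest in control 4, at 114.9 CPM against between 60.0 and 66.4 CPM in the other controls. It was between 29.4 and 33.6 CPM in the libraries labelled KO, and the part of these markers in the values above was not tested.

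The genes beside the 6 on the chromosomes were read as a local comparison, which the choice of the 6 did not use. Of the 12 nearest protein-coding neighbours in RefSeq, 9 could be tested and 3 rose (adjusted p under 0.05 by edgeR), beside 16.1% of all genes. Of the 3, Fut1 and 1600014C23Rik passed the filter on low counts only through the libraries labelled KO. Nothing is therefore read from this share, and the values of both genes are a description. Fut1, a fucosyltransferase gene that starts head to head with Fgf21 on the opposite strand of chromosome 7, had 2, 7, 6 and 10 counts in controls 1 to 4 and 163, 70, 152 and 224 counts in KO 1 to 4. It rose from 0.381 ± 0.219 to 8.02 ± 1.40 CPM (SD, n = 4 each), a log2 fold change of 4.42 (SE 0.30, edgeR adjusted p 1.06e-07). GENCODE lists no gene that overlaps Fgf21. Bcat2, which lies on the other side of Fgf21 and encodes a branched-chain aminotransferase, had means of 1.03 ± 0.544 and 0.689 ± 0.119 CPM, with overlapping groups (-0.58 on the log2 scale, SE 0.42, edgeR adjusted p = 0.334).

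Beside Vegfa on chromosome 17, 1600014C23Rik rose from 0.350 ± 0.135 to 1.24 ± 0.535 CPM (1.80 on the log2 scale, SE 0.44, edgeR adjusted p 0.00695), from a few counts per control, while Mrps18a, a mitochondrial ribosomal protein gene, had 0.15 (SE 0.12). Pgpep1, a peptidase gene beside Gdf15 on chromosome 8, rose by 0.40 (SE 0.11, edgeR adjusted p 0.0139) with overlapping groups, and this call was lost without KO 4. The tested neighbours of Adm2, Stc2 and Stc1 were Sbf1 (0.28), Asb3 (-0.26), Bod1 (0.10) and Adam28 (-1.0, SE 0.75), none past the threshold. Sbf1 passed it without KO 3, with 0.39, and with no filter on low counts, with 0.35.

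**Figure D3:**
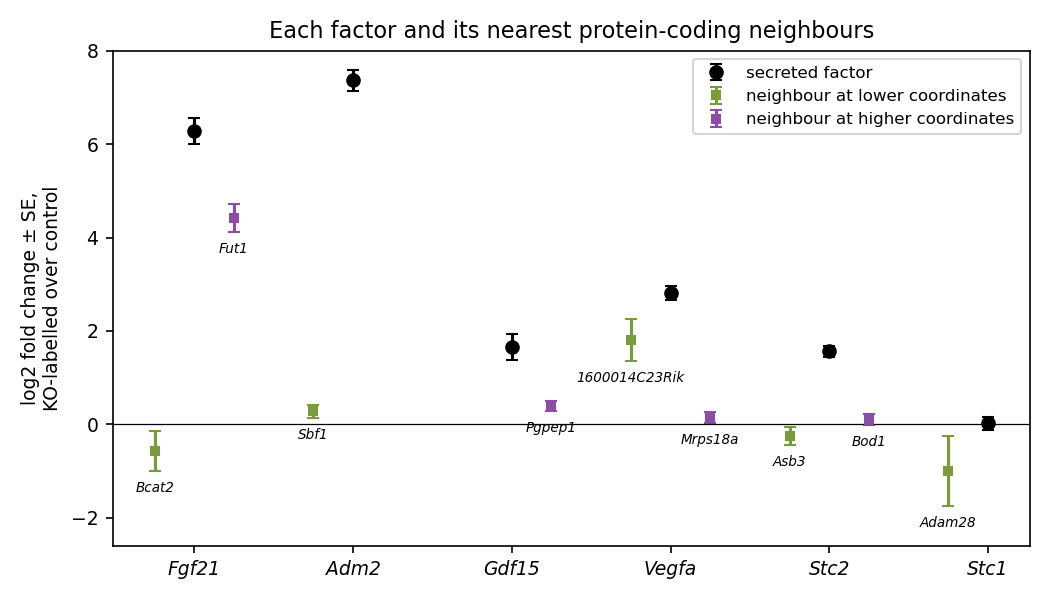
Log2 fold change of KO over control with its SE for the 6 factors (circles) and for their nearest protein-coding neighbours that could be tested (squares). Fut1, at 4.42, has the largest difference of the neighbours, and the other neighbours lie between -1.0 and 1.80.

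The receptors and binding partners of the 6 products formed a list of 19 genes, of which 14 could be tested; 6 rose and 3 fell, beside 16.1% and 13.9% of all genes, with a median log2 fold change of 0.19. ADM2 acts through the receptor CALCRL with a RAMP partner protein. Calcrl rose from 366.6 ± 7.86 to 652.9 ± 58.7 CPM (0.83, SE 0.09, edgeR adjusted p 7.10e-06) and Ramp1 from 190.8 ± 46.5 to 366.6 ± 40.5 CPM (0.94, SE 0.15, edgeR adjusted p 0.000285). All 4 libraries labelled KO were above all 4 controls for both genes. Ramp2 had 1.26 ± 0.512 and 1.32 ± 0.356 CPM, and Ramp3 had 6 counts in each group.

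Of the stanniocalcin partners in the list, 3 of 4 rose, beside 16.1% of all genes. Pappa, the gene of the protease PAPP-A, rose from 1.11 ± 0.326 to 5.44 ± 0.463 CPM (2.29, SE 0.22, edgeR adjusted p 4.05e-06). Pappa2, the gene of its relative PAPP-A2, had 1.28 ± 0.675 and 0.918 ± 0.536 CPM with overlapping groups (-0.54, SE 0.54, edgeR adjusted p 0.493). Of the binding proteins that these proteases cut, Igfbp5 rose from 172.9 ± 10.8 to 443.7 ± 47.7 CPM (1.36, SE 0.10). Igfbp4 went from 278.6 ± 86.1 to 411.4 ± 22.5 CPM (0.56, SE 0.18, edgeR adjusted p 0.0299), and its call was lost without control 2, KO 1, KO 3 or KO 4.

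Of the 4 receptors and co-receptors of VEGFA, 3 fell, beside 13.9% of all genes, while their ligand was at its higher level. Kdr, the main signalling receptor, fell from 6.54 ± 2.91 to 2.45 ± 0.741 CPM (-1.44, SE 0.30, edgeR adjusted p 0.00256), and Flt1, a decoy receptor, fell from 2.55 ± 0.424 to 1.16 ± 0.581 CPM (-1.21, SE 0.32). The co-receptor Nrp1, present at 79.4 ± 5.66 CPM in control libraries, fell to 59.2 ± 0.640 CPM (-0.42, SE 0.08), and Nrp2 had a log2 fold change of -0.08 (SE 0.17). Vessel cells are the usual site of Kdr and Flt1: the 12 endothelial and pericyte markers summed to 13.4 to 20.0 CPM in control libraries and to 7.82 to 13.3 in those labelled KO, with up to 4 of them at 0 in a library, and their part in these falls was not tested. Only 5 of the 12 could be tested.

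Receptor genes for FGF21 and GDF15 were in part at very low counts. Klb, the co-receptor that FGF21 needs, had 43 counts in all controls and 40 in all libraries labelled KO, too few for the test. Of the FGF receptors, Fgfr3 rose from 39.2 ± 3.10 to 54.9 ± 9.33 CPM (0.49, SE 0.12, edgeR adjusted p 0.00756), while Fgfr1 (0.30, SE 0.11, edgeR adjusted p 0.0586) passed, of the alternatives run, only without KO 3, and Fgfr2 had 0.09 (SE 0.17). Gfral, the receptor of GDF15, had 26 counts in control libraries and 9 in the libraries labelled KO, and its partner Ret had 9 and 4.

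**Figure D4:**
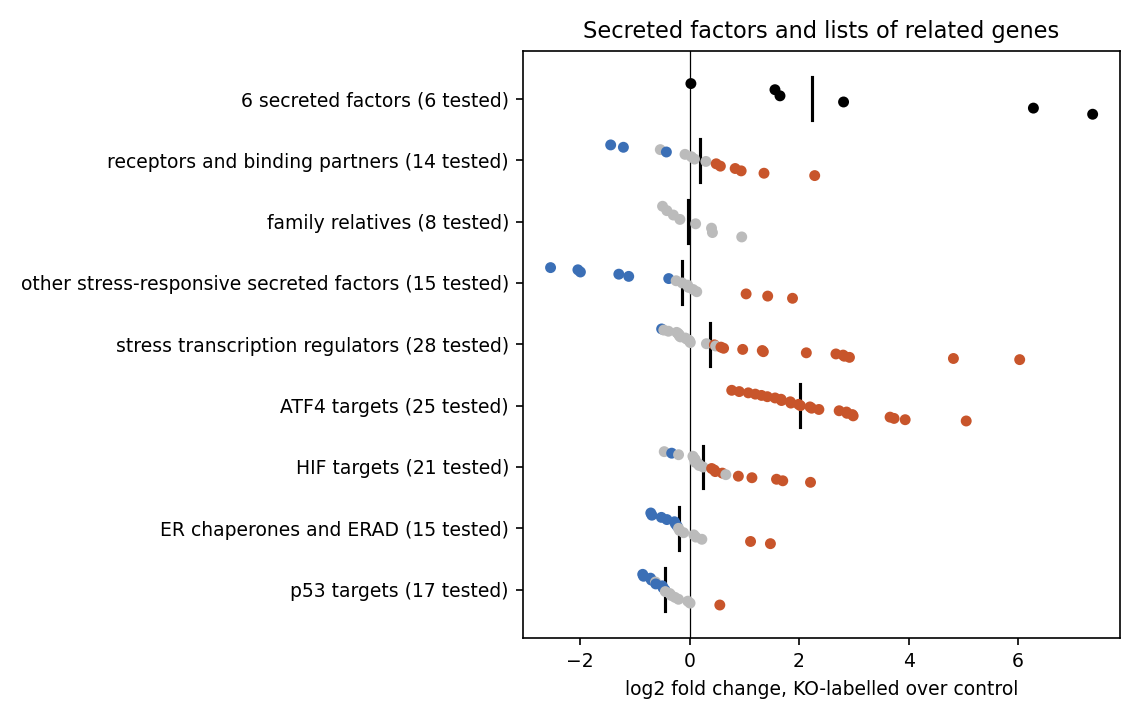
Log2 fold change of KO over control for each tested gene of 9 groups: the 6 secreted factors (black) and 8 lists of related genes, with genes that rose in red, genes that fell in blue and others in grey. Vertical bars are medians, which run from -0.45 for p53 targets to 2.23 for the secreted factors.

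The closest family relatives did not pass the test. Of 22 genes 8 could be tested and 0 were called by edgeR, 0 by DESeq2 and 0 by limma voom; 3 had an unadjusted p under 0.05, all higher in the libraries labelled KO, and the median log2 fold change was -0.03. Adm, which encodes adrenomedullin, had 80.9 ± 18.3 and 65.8 ± 5.95 CPM (-0.30, SE 0.14, edgeR adjusted p 0.14) beside the 7.36 of Adm2. Calca, of the same calcitonin family, had 0.506 ± 0.245 and 0.974 ± 0.112 CPM (0.95, SE 0.41, edgeR adjusted p 0.0972). It was the 1 tested relative whose groups did not overlap, beside 29.9% of all genes. Among the VEGF genes, Vegfb had a log2 fold change of 0.40 (SE 0.16, edgeR adjusted p 0.0692) and Vegfc one of -0.41 (SE 0.23). Inhbb, an activin subunit gene, had 0.11 (SE 0.12) and Gdf11 -0.18 (SE 0.09). Fgf15 and Fgf23, the other endocrine FGF genes, had 7 and 18 counts in all controls and 6 and 10 in all libraries labelled KO. Without control 1, 2 relatives rose, Vegfb (0.50) and Gdf9 (0.58), and without control 4, 2 fell, Adm (-0.45) and Gdf11 (-0.26). Vegfb also passed with no filter on low counts (0.46).

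Of 26 other secreted or secretory pathway factors known to answer stress 15 could be tested. Of these 3 rose and 6 fell, beside 16.1% and 13.9% of all genes, with a median of -0.14. Angptl4, which inhibits lipoprotein lipase, rose from 1.09 ± 0.497 to 4.10 ± 0.364 CPM (1.88, SE 0.28), Bdnf, a neurotrophin gene, rose by 1.43 (SE 0.27) and Angptl6 by 1.03 (SE 0.16). The chemokine gene Ccl2 fell from 3.61 ± 0.409 to 0.605 ± 0.549 CPM (-2.54, SE 0.40), Ereg, an EGF receptor ligand gene, fell by 2.04 on the log2 scale (SE 0.28) and Fst, the gene of the activin antagonist follistatin, by 2.00 (SE 0.41). The secretory pathway factors Sdf2l1 (-1.29, SE 0.13) and Creld2 (-0.38, SE 0.10), which rise when protein folding in the endoplasmic reticulum fails, also fell, the call of Creld2 being lost with no filter on low counts (-0.32). Areg, a relative of Ereg, completed the falls (-1.11, SE 0.24).

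Regulators and targets of the stress pathways were read from 5 lists, chosen with earlier results of these data known. Of 28 regulators 13 rose and 1 fell, beside 16.1% and 13.9% of all genes (median 0.38). Trib3, a pseudokinase that restrains ATF4, had a log2 fold change of 6.03 (SE 0.25), Nupr1, a stress-induced chromatin protein gene, rose from 0.699 ± 0.308 to 19.8 ± 2.56 CPM (4.82, SE 0.22), and the transcription factors Atf3 (2.92, SE 0.16) and Cebpb (2.83, SE 0.23) rose too. Atf4 itself rose from 18.3 ± 2.42 to 36.0 ± 4.48 CPM (0.97, SE 0.12) and Hif1a by 0.45 (SE 0.09), whereas Eif2ak3, the gene of the eIF2 kinase PERK, fell by 0.51 on the log2 scale (SE 0.08). The single fall became 3 without control 4.

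All 25 ATF4 targets rose, beside 16.1% of all genes, and the groups overlapped for none of them, beside 29.9% of all genes without overlap. Their median was 2.02, and they were led by Chac1 (5.05, SE 0.22), Cth (3.94, SE 0.16), Pck2 (3.74, SE 0.18) and Aldh1l2 (3.66, SE 0.13). Of 21 HIF targets 9 rose and 1 fell, beside 16.1% and 13.9% of all genes, with a median of 0.25. The oxidoreductase gene Ero1l rose most (2.21, SE 0.10), then Bnip3 of mitochondrial autophagy (1.70, SE 0.19), Pdk1, which limits pyruvate oxidation (1.59, SE 0.17), and Ndrg1 (1.14, SE 0.23). Genes of glucose use went both ways. Pfkfb3 (0.89, SE 0.14), Tpi1 (0.47, SE 0.13) and Hk2 (0.40, SE 0.12) rose. The glucose transporter gene Slc2a1 (0.07, SE 0.14), Pgk1 (0.10, SE 0.11), Ldha (0.16, SE 0.17), Aldoa (0.10, SE 0.12) and Pfkfb4 (-0.46, SE 0.24) did not pass. The 1 fall, that of the glycolysis gene Eno1 (-0.33, SE 0.09), was lost without KO 1 or KO 4, and the number that rose was 6 without control 2 and 7 to 9 without any other single library.

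Of 15 genes of endoplasmic reticulum chaperones and degradation 2 rose, Herpud1 (1.48, SE 0.11) and Sel1l (1.11, SE 0.10), and 7 fell, among them the chaperone gene Calr (-0.71, SE 0.12) and the disulfide isomerase gene Pdia6 (-0.69, SE 0.10), with a median of -0.20. Over all genes 16.1% rose and 13.9% fell, so the share of this list that rose was near that of all genes. The 7 became 4 without control 2, control 3, KO 1 or KO 4. Of 17 p53 targets 1 rose and 8 fell, or 13 without control 4, beside 16.1% and 13.9% of all genes, with a median of -0.45 beside the 1.65 of Gdf15. Phlda3 (-0.86, SE 0.12), Eda2r (-0.84, SE 0.12), Aen (-0.71, SE 0.10) and Fas (-0.70, SE 0.17) fell furthest, and Bbc3 was the member that rose (0.55, SE 0.15).

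The genes whose profile over the 8 libraries was closest to each factor were found by the root mean square (RMS) difference of log2 CPM, each gene centred on its own mean. This measure follows mostly the group difference and is given as a description, with no test. Fgf21 and Adm2 were among the closest genes of each other (RMS 0.26), along with Cox6a2, a muscle-type subunit gene of cytochrome c oxidase (0.37 from Fgf21 and 0.18 from Adm2), and Chac1 (0.39 from each). Vegfa was closest to Txnip (0.12), Arrdc4 (0.12) and Ddit3 (0.13). Txnip had 4.40 CPM in control 4 and between 7.38 and 9.37 CPM in the other controls, the same low library as Vegfa, and between 43.9 and 46.0 CPM in the libraries labelled KO.

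Gdf15 was closest to Phyh (RMS 0.12), which had 12.5 CPM in control 4 and between 28.5 and 30.4 CPM in the other controls, and to Scrg1 (0.18) and Car13 (0.19). Stc2 was closest to Psph (0.10), Fads3 (0.10) and Luzp2 (0.10), whose log2 fold changes lay between 1.40 and 1.51. Stc1 was closest to Gsap (0.09), Sgms2 (0.10) and Gnb4 (0.10), which had log2 fold changes between -0.03 and 0.08.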

How the data were processed

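RNA-seq counts from 8 libraries, 4 per group, were analysed. The authors deposited one table of raw counts per gene symbol. HTSeq 0.6.1p1, CASAVA and the builds mm9 and NCBIM37 appear in the submitters' processing notes. For the aligner and strand setting, nothing is given in the sources used here. All 6 genes, the 8 lists of related genes, the marker lists and the tests were chosen with earlier results of these data known. After filterByExpr and TMM scaling, edgeR 4.0.16 in R 4.3.3 gave quasi-likelihood tests (not robust), with Benjamini-Hochberg adjustment over all 15021 genes and a threshold of 0.05. The filter asks for enough counts in 4 libraries, so a gene scarce in 1 group can pass through the other alone. CPM use TMM-scaled library sizes, 3 counts being 0.126 to 0.261 CPM. SE is the log2 fold change divided by the root of F. No 2 libraries of a group agreed within sampling noise (chi-square per degree of freedom at least 4.45). Controls 2 and 3 were the most alike, at 4.45, and every other pair within a group lay between 13.8 and 36.2. The script was tested on simulated counts.

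Named genes were the 6 factors, label checks, up to 4 called genes of each list with the largest change (or the 2 most abundant), chromosome neighbours and the 3 genes with the closest profile to each factor, of at least 5 CPM; log2 CPM used an offset of 0.5. The other receptors, markers and list members named were chosen after their values were seen. Neighbours, exon lengths and promoters came from RefSeq GRCm38.p6 and GENCODE M21 by symbol, another build than the counts. Alternatives were DESeq2 1.42.0, limma 3.58.1 voom, other scalings and filters, a replicate block, a prior count of 2 and each library left out.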

Additional observations from a re-analysis of the deposited data

Results flagged for a closer look

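A library stood far from the other 3 of its group in 6 of 143 sets of 4 values examined, where chance gives about 1 in 20. None of the 6 was a set of values of the secreted factors themselves. In control 4, Pdk1 had 9.31 CPM, Ndrg1 4.01 CPM, Phyh 12.5 CPM and Arrdc4 35.6 CPM, each below the other controls. In KO 2, Trib3 had 209.2 CPM, below the other libraries labelled KO. In KO 4, Inhbb had 107.5 CPM, above the others.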

How the results depend on the processing

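The log2 fold changes of Gdf15, Vegfa, Stc2 and Stc1 stayed within the spread between replicates under every alternative run. Those of Adm2 and Fgf21, with few control counts, were 6.56 and 5.84 with a prior count of 2, between 7.09 and 7.72 and between 6.00 and 6.72 when single libraries were left out, and within that spread otherwise. Without a filter on low counts the median log2 fold change of all genes was -0.13, 4 chaperone and degradation genes and 0 HIF targets fell and 1 family relative rose. The regulators that fell numbered 2 with RLE scaling or a mean of at least 1 CPM and 3 with upper-quartile scaling or DESeq2. With single libraries left out, between 4 and 7 chaperone and degradation genes, 0 and 1 HIF targets, 0 and 2 family relatives, 8 and 13 p53 targets and 1 and 3 regulators fell, and between 0 and 2 relatives rose. The cause of these shifts was not tested.

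Whether the replicate numbers pair the libraries cannot be told from the counts. Deviations of same-numbered libraries correlated by 0.20, 0.23, -0.18 and 0.03 for numbers 1 to 4. Controls 1, 2 and 4 correlated best with the library labelled KO of their own number, and control 3 did not. With the replicate block 2237 genes rose and 1940 fell, against 2412 and 2087, and 4 chaperone and degradation genes fell. Depth limits Fgf21 and Adm2 in the controls, where single libraries held 1 to 9 counts, and the receptors Klb, Gfral, Ret and Ramp3, which could not be tested.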
